A study of Mus musculus with 2 samples.

Results

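The genes of the mouse mitochondrial genome and their nuclear copies were examined in total RNA. They were chosen by name, as every gene entry whose symbol starts with mt- together with 9 named nuclear copies, and comprised 46 of 43346 gene entries: 13 mRNAs, 2 rRNAs, 22 tRNAs and 9 copies. The samples were 2 biological replicates of G1E cells, an immortalised mouse erythroid progenitor line labelled Gata1-, C57BL/6J and male, postnatal, at age 0 days. Gata1 encodes the transcription factor that drives erythroid maturation, and both libraries carry the label Gata1-, so no cells with an intact gene were set against them here. Gata1 itself was listed at 798 and 649 counts, or 21.96 and 12.51 TPM, and a count per gene does not show whether the transcript is intact. Each library was made from 1 ng of total RNA longer than 200 nucleotides, with spike-in RNA added. There is 1 group and 1 line, so levels are described, and the tests set one library against the other and compare no conditions. The gene entries held 31649361 estimated counts in replicate 1 and 40587256 in replicate 2, and intervals cover counting error only.

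Mammalian mitochondria carry a circular genome of their own, written as chromosome M, which is transcribed from both strands into long precursors. Most of its tRNAs sit between the longer genes, and their excision releases the mRNAs and rRNAs. The mRNAs encode core subunits of respiratory complexes I, III and IV and of the ATP synthase (complex V), while nuclear genes supply the remaining subunits and the transcription and RNA-processing machinery. Fragments of mitochondrial DNA have also been copied into the nuclear chromosomes, where they are annotated as pseudogenes.

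The label of the cells was checked against markers. All 8 listed erythroid progenitor genes (Gata2, Kit, Gfi1b, Tal1, Lmo2, Klf1, Myb and Zfpm1) reached at least 1 TPM (a level scaled to transcript length and to the library's total) in both libraries. The 6 lymphocyte markers were at 0 in both, and none of 6 granulocyte and macrophage markers or of 6 fibroblast and endothelial markers reached 1 TPM. The libraries stood apart in red cell maturation genes. Of a list of 12 chosen with their values known, 10 were called higher in replicate 2 and 0 in replicate 1 by the binomial test described below, in which 5.04% of all genes were called higher in replicate 2, and 9 were called by edgeR's negative binomial test. Their TPM summed to 337 in replicate 1 and 1645 in replicate 2. Because the values were known beforehand, the calls describe these genes and are no test of maturation. Rhag, with 6207 and 5634 counts, and Ermap, with 4268 and 5235, were not called by the binomial test. Slc4a1, the red cell anion exchanger, had 115 and 10387 counts, Hba-a1, an alpha globin, had 527 and 4014, and Aqp1, a water channel, had 1 and 496. The part of this difference in the mitochondrial ratios was not tested. The libraries also differed in composition: the median TPM of detected nuclear protein-coding genes was 9.31 in replicate 1 and 6.08 in replicate 2. A TPM value therefore stood lower in replicate 2 for the median gene, and ratios between the libraries are given after scaling by TMM, a normalisation in which the median gene had a log2 ratio near 0.

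The copies shared long identical stretches with their mitochondrial originals, which decided how the rows could be read. Of the 9 copies, 7 lay on chromosome 1 on the minus strand between 24611535 and 24616197 (GRCm38), in the reverse of the mitochondrial order. Their separate alignments ran from mt-Co1 to mt-Nd4 within a span of 4653 bases (chrM:6390-11042). Bases between the entries were not compared. The entry mt-Atp8 (chrM:7766-7969) lies inside that span, but no copy of it is among the 9 named copies. The other 2 copies, Gm13341 (chr2:22587291-22587962) and Gm13340 (chr2:22588103-22589647), lay next to each other. In BLAST alignments, 5 copies were 100% identical to their mRNA over the aligned bases: Gm28439 to mt-Nd4 over 876 bases, Gm28437 to mt-Co3 over 783, Gm28661 to mt-Co2 over 681, Gm10925 to mt-Atp6 over 678 and Gm10222 to mt-Nd4l over 294. Gm28438 matched mt-Nd3 at 99.7%, and the last 483 bases of Gm29216 matched mt-Co1 at 99.8%. The chromosome 2 copies were more diverged, at 97.6% for Gm13340 against mt-Co1 and 95.9% for Gm13341 against mt-Co2.

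The sequences below show how little separates a copy from its original. The mRNA of mt-Nd4l (chrM:9877-10173, plus strand), a small complex I subunit, is printed whole. Its copy Gm10222 holds the same letters except for the capitals at the end, which are absent from the copy entry. The start of mt-Nd3 (chrM:9459-9518, plus strand) is set beside that of Gm28438 (chr1:24613060-24613119, minus strand), with capitals at the base that differs, T3C counted from the 5′ end of the mRNA. Part of mt-Co1 (chrM:6381-6440, plus strand) is set beside the start of Gm29216 (chr1:24616138-24616197, minus strand), with capitals at the 6 letters that differ, the last at base 13 of the copy. Sequences are the GENCODE M21 transcripts on GRCm38, written as DNA.
mt-Nd4l: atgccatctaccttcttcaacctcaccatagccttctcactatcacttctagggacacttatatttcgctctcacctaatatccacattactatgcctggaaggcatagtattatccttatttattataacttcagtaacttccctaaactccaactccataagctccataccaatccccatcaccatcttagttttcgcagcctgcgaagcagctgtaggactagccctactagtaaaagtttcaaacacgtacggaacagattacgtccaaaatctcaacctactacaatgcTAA
mt-Nd3: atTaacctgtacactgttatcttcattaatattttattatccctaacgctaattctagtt
Gm28438: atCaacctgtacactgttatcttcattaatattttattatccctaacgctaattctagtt
mt-Co1: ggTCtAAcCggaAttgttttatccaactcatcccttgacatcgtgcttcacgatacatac
Gm29216: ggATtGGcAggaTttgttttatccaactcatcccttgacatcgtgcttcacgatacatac

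Mitochondrial genes also overlap one another, so that some bases belong to more than one entry. The end of mt-Atp8 (chrM:7890-7969) is shown with capitals over the 43 bases that it shares with the start of mt-Atp6. The start of mt-Nd4 (chrM:10167-10206) is shown with capitals over the 7 bases that it shares with mt-Nd4l. mt-Nd5 and mt-Nd6, which are encoded on opposite strands, overlap by 14 bases at their ends. The last line shows the end of mt-Co3 (chrM:9361-9390), 1 of 3 mRNAs whose length is not a multiple of 3. Its capital T stands alone after the last full codon, a form of stop codon that polyadenylation is known to complete. All 3 stretches are on the plus strand.
mt-Atp8: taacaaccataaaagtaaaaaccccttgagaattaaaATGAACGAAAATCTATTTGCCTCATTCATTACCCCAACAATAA
mt-Nd4: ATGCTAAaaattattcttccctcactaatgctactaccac
mt-Co3: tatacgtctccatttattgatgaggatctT

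Reads that fit a copy and its original equally well were divided by the quantifier, and the division differed widely between genes and between libraries. For mt-Co2, a core subunit of cytochrome c oxidase, 1115 counts in replicate 1 and 937 in replicate 2 were placed on the mitochondrial entry. The identical copy Gm28661 received 22413 and 46535. The copies thus held 95.3% of the summed mt-Co2 count in replicate 1 and 98.0% in replicate 2. The 95% Clopper-Pearson interval in replicate 2 began at 97.9%, but it does not cover the uncertainty of dividing shared reads. For mt-Atp6, the ATP synthase subunit of the proton channel, 13345 counts in replicate 1 and 120994 in replicate 2 were on the mitochondrial entry, against 110017 and 37588 on Gm10925. The copy's share of the mt-Atp6 family was therefore 89.2% in replicate 1 and 23.7% in replicate 2.

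In mt-Nd3, which encodes a small complex I subunit, the copy Gm28438 held 140 of 634 counts in replicate 1 and 1073 of 1151 in replicate 2, or 22% and 93.3%. In mt-Nd4l the copy Gm10222 held 59.8% in replicate 1 and 87.6% in replicate 2. In mt-Co3, a cytochrome c oxidase subunit, Gm28437 held 39.5% and 52.6%. By estimated count these 3 families all had the larger copy share in replicate 2, whereas mt-Atp6 had it in replicate 1. The copies of mt-Co1, the catalytic subunit of cytochrome c oxidase, held 13.04% and 14.5%. Nearly all of that came from Gm29216, with 33359 and 75350 counts, while Gm13340 had 130 and 273. For mt-Nd4, a large complex I subunit, Gm28439 held 0.269% and 0.0170%, or 495 and 32 counts, although it is identical over the 876 bases that it covers. The lowest member with a count was Gm13341, the more diverged copy of mt-Co2, with 9 and 18.

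The authors' deposited tables carry their own measure of this uncertainty, a credibility interval of TPM around a posterior mean. For the mitochondrial mt-Co2 entry it ran from 54.3 to 1274 TPM in replicate 1 and from 60.7 to 1749 in replicate 2. For mt-Atp6 it ran from 1112 to 5822 TPM and from 3855 to 8572. For mt-Nd5, which has no listed copy, it ran from 2423 to 2455 TPM and from 2091 to 2117. Both mt-Nd5 intervals surround the posterior mean and lay below the TPM values used for its level, 2525 and 2162. By the deposited posterior mean counts, the copies held 80.6% and 84.1% of the mt-Co2 family and 73.6% and 34.1% of the mt-Atp6 family. They held 26.9% and 91.0% of the mt-Nd3 family and 61.1% and 87.2% of the mt-Nd4l family. In the mt-Co3 family the posterior shares were nearly equal, at 55.9% and 57.3%. The family sums did not carry this uncertainty: in each of the 7 families with copies, the mRNA and its copies summed to a whole number of counts in both libraries within 0.02. Each mRNA was therefore summed with its copies before any comparison, and a family level is the summed count over the effective length of the mRNA (its length less the correction for fragment length), on the TPM scale.

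**Figure D1:**
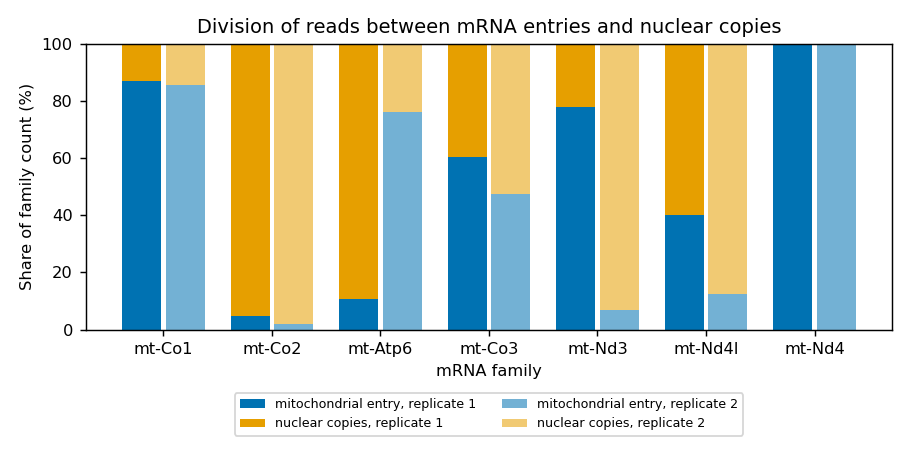
Share of each family's estimated count placed on its nuclear copies (yellow) and on the mitochondrial entry (blue), in percent on the vertical axis, in replicate 1 (darker) and replicate 2 (lighter), for the 7 mRNAs that have copies; stacked bars start at 0. The shares of mt-Atp6 were 89.2% and 23.7% and those of mt-Nd3 22% and 93.3%, while those of mt-Co1 were 13.04% and 14.5%.

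The 13 mRNA families together took 3.63% of all estimated counts in replicate 1 and 3.61% in replicate 2 (3.62% ± 0.0188, SD, n = 2). That total includes ribosomal RNA entries, and without them the share was 11.1% and 14.8%. The levels of the families summed to 75438 and 66424 TPM (70931 ± 6374). The copies contributed 190376 and 201684 counts, which was 16.5% and 13.8% of the mRNA families. Within the 7 families that have copies, they held 30.1% and 20.7%. In bulk RNA, more mitochondria per cell and more RNA per mitochondrion cannot be told apart.

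ATP synthase mRNAs stood high. mt-Atp8, a short ATP synthase subunit, had 16547 TPM in replicate 1 and 14131 in replicate 2 (15339 ± 1708, SD, n = 2), and the mt-Atp6 family had 10250 and 9676 (9963 ± 406). mt-Atp8 exceeded mt-Atp6 by 1.61 and 1.46 times, although the 2 genes overlap and are known to share 1 transcript. This order turned with the length used: mt-Atp8 is the shortest of the mRNAs, with an effective length of 91.9 bases in replicate 1, and counts over annotated length gave mt-Atp8 at 0.872 and 0.729 of mt-Atp6. A similar pair, mt-Nd4l and mt-Nd4, had nearly equal levels, with ratios of 1.12 and 1.01, or 0.756 and 0.652 over annotated length.

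The 3 cytochrome c oxidase mRNAs were far apart. The mt-Co1 family had 8461 and 12485 TPM (10473 ± 2845), mt-Co2 1945 and 2882 (2414 ± 662) and mt-Co3 1042 and 1753 (1397 ± 503). The ratio of mt-Co1 to mt-Co2 was 4.35 and 4.33, so it moved little between libraries, and that of mt-Co1 to mt-Co3 was 8.12 and 7.12. All 3 had a higher TPM in replicate 2, in contrast to most other mitochondrial mRNAs.

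Complex I mRNAs covered the widest range. The mt-Nd2 family had 9179 TPM in replicate 1 and 4988 in replicate 2 (7083 ± 2963), mt-Nd4l 7711 and 5117 (6414 ± 1834) and mt-Nd4 6869 and 5047 (5958 ± 1289). Lower were mt-Nd1, with 4326 and 3387 TPM (3856 ± 664), and mt-Nd5, with 2525 and 2162 (2343 ± 257). These subunits form the membrane arm of the enzyme. mt-Nd6, which alone among the mRNAs is encoded on the other strand, had 403 and 516 TPM (459 ± 79.6). The median of the other 12 families was 16.03 and 8.82 times that of mt-Nd6. The labels do not say whether counting used strand, so reads of mt-Nd6 and reads antisense to it may not be separated. mt-Nd3 was the lowest, at 127 and 174 TPM (151 ± 33.2), and mt-Co1 exceeded it by 66.4 and 71.6 times. mt-Cytb, the complex III subunit, had 6053 and 4107 TPM (5080 ± 1376).

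In the order of mean levels, several neighbours had overlapping values in the libraries: mt-Co1 with mt-Atp6, mt-Nd2 with mt-Nd4l, mt-Nd4l with mt-Nd4, mt-Nd4 with mt-Cytb, mt-Cytb with mt-Nd1, and mt-Co2 with mt-Nd5. The steps from mt-Atp8 to mt-Co1, from mt-Atp6 to mt-Nd2, from mt-Nd1 to mt-Co2, and from mt-Nd5 through mt-Co3 and mt-Nd6 to mt-Nd3 had no overlap. The place of mt-Atp8 at the top rested on effective length: over annotated length it averaged 7451 TPM, under mt-Co1 at 10908 and mt-Atp6 at 9281. Among all gene entries by mean level, mt-Atp8 ranked 4, mt-Co1 6 and mt-Atp6 7, against 7, 4 and 6 over annotated length. mt-Nd6 ranked 55 and mt-Nd3 189, or 59 and 232 over annotated length.

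**Figure D2:**
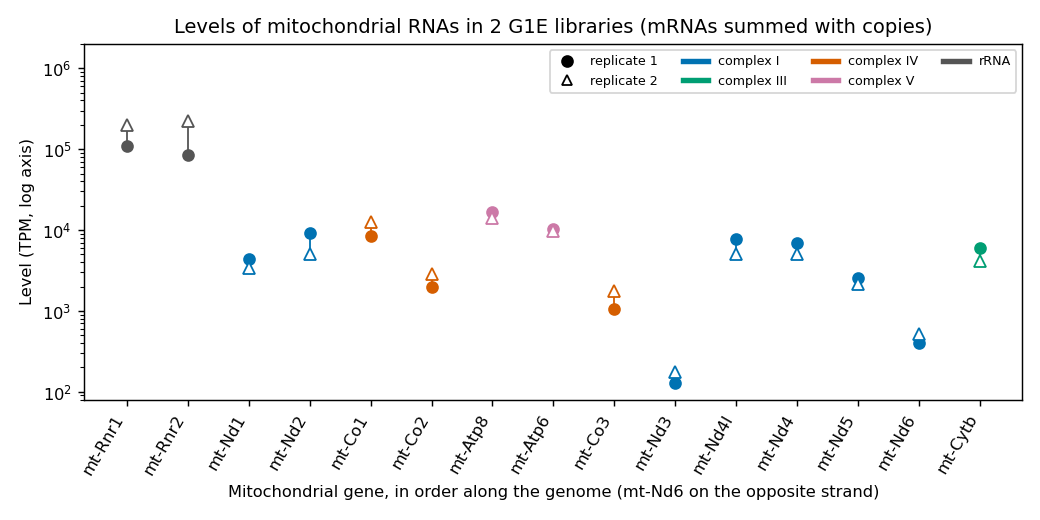
Level of each mitochondrial mRNA summed with its copies, and of both rRNAs (TPM, log axis), in replicate 1 and replicate 2, in order along the mitochondrial genome. The mRNAs ran from 127 TPM for mt-Nd3 to 16547 for mt-Atp8 in replicate 1, and both rRNAs stood above all mRNAs.

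By complex, the 7 complex I mRNAs held 41.3% of the summed mRNA level in replicate 1 and 32.2% in replicate 2 (36.7% ± 6.42, SD, n = 2). Complex IV held 15.2% and 25.8% (20.5% ± 7.49), complex V 35.5% and 35.8% (35.7% ± 0.226) and complex III 8.02% and 6.18% (7.10% ± 1.30). Complex V thus kept its share, while the shares of complexes I and IV moved in opposite directions between the libraries. As a share of counts, which is not scaled to length, complex V held 13.5% and 13.2%, and complex IV 25.7% and 41.2%.

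**Figure D3:**
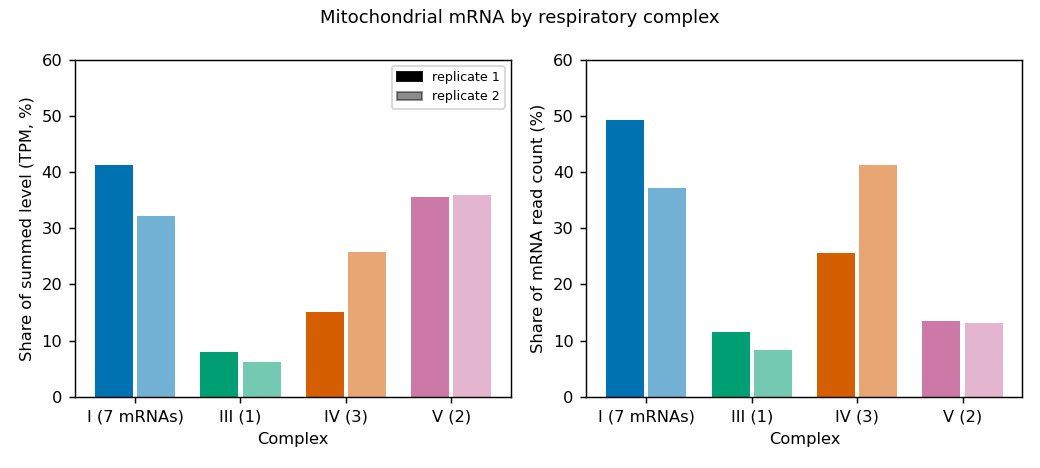
Share of the summed mitochondrial mRNA level in TPM (left) and of the mRNA count (right), in percent on the vertical axes, held by complexes I, III, IV and V in replicate 1 (darker) and replicate 2 (lighter), with bars from 0. By level, complex IV stood at 15.2% and 25.8% and complex I at 41.3% and 32.2%, while complex V differed by less than 1 point (35.5% and 35.8%).

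The nuclear-encoded subunits of the same complexes were far lower per gene. For complex I the median of the mitochondrial mRNAs was 207 and 239 times that of 37 nuclear subunits (20.9 and 14.2 TPM). For complex III the ratio was 303 and 232 over 9 nuclear subunits, for complex IV 37.6 and 79.04 over 10, and for complex V 278 and 419 over 16. None of these nuclear subunits was called between the libraries by the binomial test described next, against 7.23% of all genes. By edgeR's negative binomial test 0 were called also, against 2.46% of all genes. An unadjusted binomial p under 0.05 was found for 13 of 37, 2 of 9, 6 of 10 and 6 of 16, and for 41.3% of all genes. The median log2 ratio of the complex IV nuclear subunits was 0.01, against 0.00013 for all genes.

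The libraries were compared gene by gene with a two-sided exact binomial test on counts after TMM scaling, and a row was called when its ratio reached 2-fold in either direction and its p, adjusted by Benjamini-Hochberg, was under 0.05. Of 11893 gene entries tested, 7.23% were called, 5.04% higher in replicate 2 and 2.19% higher in replicate 1. Of the 15 testable mitochondrial rows (13 mRNA families and 2 rRNAs), 6 were called, all higher in replicate 2 under TMM and all lower there when scaled by spike-ins. These were mt-Rnr1, mt-Rnr2, mt-Co1, mt-Co2, mt-Co3 and mt-Nd3. Spike-in scaling moved the median gene to a log2 ratio of -4.50 and total counts moved it to -0.52, so the ratios below are relative to the median gene. With total counts, 3.3% of all genes were called higher and 8.55% lower in replicate 2, and with spike-ins 97.5% were called lower. Of the 6 calls, total counts left 1, mt-Rnr2, with mt-Co1 at a log2 ratio of 0.66, mt-Co2 at 0.65, mt-Co3 at 0.84, mt-Nd3 at 0.50 and mt-Rnr1 at 0.93.

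The 3 cytochrome c oxidase mRNAs moved together. The mt-Co1 family held 256882 counts in the first replicate and 521844 in replicate 2, a ratio of 2.28 (95% interval 2.27 to 2.29), mt-Co2 had 23537 and 47489, a ratio of 2.26 (2.23 to 2.30), and mt-Co3 had 14816 and 34039, a ratio of 2.58 (2.53 to 2.63). mt-Nd3 had 634 and 1151 counts, a ratio of 2.04 (1.85 to 2.25), whose interval includes 2. mt-Nd6, with 3467 and 5996 counts, lay just under the limit at 1.94 (1.86 to 2.02). The other 8 families lay between 0.836 for mt-Nd2 and 1.44 for mt-Atp6. As a whole the mRNA families were 1.43 times higher in replicate 2 (1.42 to 1.43) after TMM scaling, at log2 ratios of -0.011 when scaled by total counts and -3.98 when scaled by spike-ins. By complex, the ratio was 1.08 for complex I, 1.04 for complex III, 2.29 for complex IV and 1.39 for complex V.

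Measured within the mitochondrial mRNA total, which needs no nuclear gene, none of the 13 families reached 2-fold. mt-Co3 was at 1.80, mt-Co1 at 1.60, mt-Co2 at 1.58, mt-Nd3 at 1.43 and mt-Nd6 at 1.36, and mt-Atp6 was at 1.01. At the other end were mt-Nd2 at 0.585, mt-Nd4l at 0.684, mt-Cytb at 0.732 and mt-Nd4 at 0.794. By edgeR's negative binomial exact test with a common coefficient of variation of 25.9%, 2.46% of all genes were called (2.2% higher in replicate 2), and of the 15 mitochondrial rows 1 was, mt-Rnr2 (adjusted p = 0.0131). That coefficient was estimated from the same pair of libraries, so it includes the differences that were tested.

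Without summing, the picture of single rows was different. By estimated counts, the mt-Atp6 entry alone was 10.2 times higher in replicate 2, against 1.44 for the family, while its copy Gm10925 was at 0.383. The posterior mean counts of the mt-Atp6 entry lay nearer each other, at 32571 and 104474 (posterior SD 19230 and 29442). The mt-Nd3 entry alone was at 0.177 and its copy Gm28438 at 8.59, around a family ratio of 2.04. The mt-Nd4l entry was at 0.300 and Gm10222 at 1.43, with the family at 0.976. The mt-Co2 entry was at 0.942 and Gm28661 at 2.33. Thus the direction of mt-Nd3 under TMM turned with the treatment of the copies. The counting interval of the mt-Co2 entry alone included 1 (0.863 to 1.03), but it does not cover the division of shared reads. The posterior mean counts of that entry were 4557 and 7537, with posterior SDs of 4605 and 8774, so its direction cannot be told. In a fit with copies kept apart, 7 of 9 copies were called, 5 higher and 2 lower in replicate 2, and 5 of 13 mRNA entries were called, 3 higher and 2 lower. Of all entries in that fit 7.3% were called, 5.08% higher and 2.22% lower in replicate 2. For copies and for mRNA entries that have copies, the test takes the divided counts as observed. Its calls on such single entries therefore do not cover the uncertainty of dividing shared reads.

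**Figure D4:**
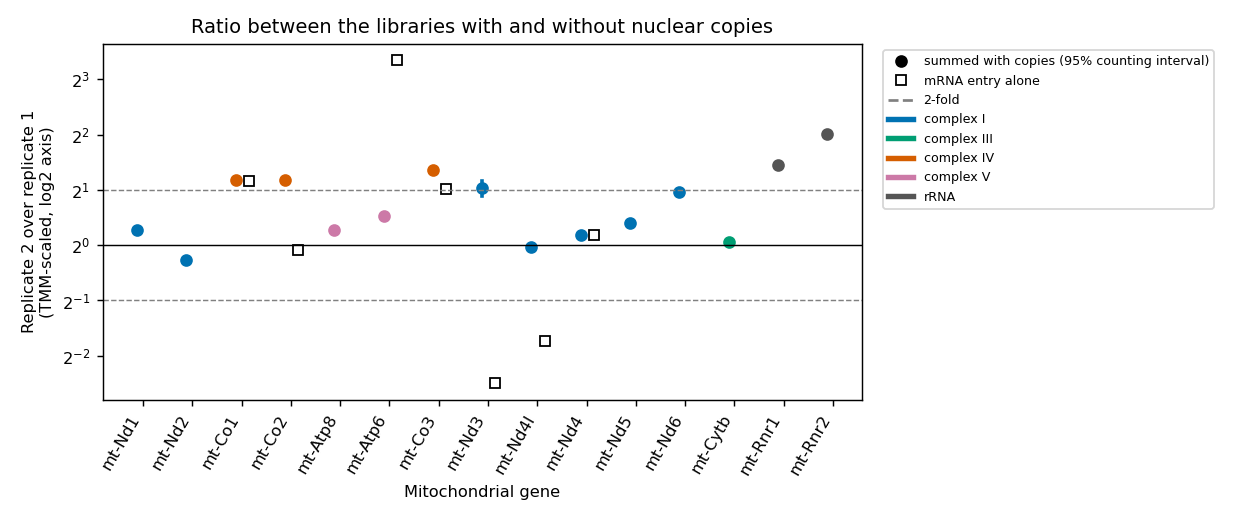
Ratio of replicate 2 over replicate 1 after TMM scaling (log2 axis) for each mRNA family with its 95% counting interval, for both rRNAs, and for the mRNA entry alone where copies exist (open squares); dashed lines mark 2-fold. The filled points of mt-Co1, mt-Co2, mt-Co3, mt-Nd3 and both rRNAs lie above the upper line under TMM (all below 1 with spike-in scaling). The open squares of mt-Co2, mt-Atp6, mt-Nd3 and mt-Nd4l lie far from their filled points.

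The rRNAs of the mitochondrial ribosome were the most abundant members. mt-Rnr1, the small-subunit rRNA (chrM:70-1024), held 1966063 counts in the first replicate and 4818401 in replicate 2, or 6.21% and 11.9% of all counts. mt-Rnr2, the large-subunit rRNA (chrM:1094-2675), had 2652063 and 9543762 counts, or 8.38% and 23.5%. By mean level both stood above all 13 mRNAs, with 153628 ± 61465 TPM for mt-Rnr1 and 153844 ± 97140 for mt-Rnr2 (SD, n = 2). Their ratios were 2.75 (2.74 to 2.75) and 4.03 (4.03 to 4.04) under TMM, farther from 1 than that of any mRNA family. With spike-in scaling the direction turned. The rRNAs, at log2 ratios of -3.04 and -2.48, then lay nearer 0 than the mRNA families, which ran from -4.76 to -3.13. Scaling shifts all log2 ratios alike, so the rRNAs kept the highest ratios of replicate 2 over replicate 1.

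Their balance moved as well. mt-Rnr2 was at 0.773 of mt-Rnr1 in replicate 1 and 1.13 in replicate 2 (0.951 ± 0.252, TPM), so the libraries lay on either side of 1. The rRNA level was 2.59 times that of the summed mRNAs in replicate 1 and 6.32 times in replicate 2 (4.45 ± 2.64). The share of the mRNA families in the count excluding ribosomal RNA entries was 11.1% and 14.8%, and their count per 100 counts on nuclear protein-coding genes was 13.5 and 19.1. Whether the rRNA content of the libraries has a part in the mRNA ratios was not tested.

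All 22 mitochondrial tRNA entries had 0 counts in both libraries. They are 59 to 75 bases long, were given an effective length of 0 by the quantifier, and are shorter than the 200 nucleotides that the RNA was selected for. The zeros therefore set no limit on tRNA levels. By the naming rule no tRNA had a count to rank, so none is named.

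The nuclear genes that transcribe, replicate and process mitochondrial nucleic acids were followed in a list of 54 genes, of which 52 reached 1 TPM in both libraries. Polrmt, the mitochondrial RNA polymerase, had 10.6 and 5.97 TPM (8.27 ± 3.25, SD, n = 2), and its partners Tfam and Tfb2m, which act at the promoters, had 4.73 ± 0.990 and 5.80 ± 0.658 TPM. The replicative helicase Twnk had 3.08 ± 0.566 TPM and the DNA polymerase Polg 8.99 ± 4.43. Lrpprc, which stabilises mitochondrial mRNAs, had 28.3 and 14.9 TPM (21.6 ± 9.52).

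The highest of the list were Rexo2, an oligoribonuclease, with 46.0 ± 21.1 TPM, Grsf1, a protein of mitochondrial RNA granules, with 23.7 ± 9.31, and Primpol, a primase-polymerase, with 22.6 ± 7.06. The lowest were Mrm2, an rRNA methyltransferase, with 0.835 ± 0.276 TPM, Gtpbp3, a tRNA-modifying enzyme, with 1.04 ± 0.247, and Top1mt, a mitochondrial topoisomerase, with 1.24 ± 0.148. None of the 54 was called between the libraries by the binomial test or by edgeR's negative binomial test, against 7.23% and 2.46% of all genes. An unadjusted binomial p under 0.05 was found for 20 of the 54 and for 41.3% of all genes. Ratios above 1 were seen in 22 of 54, and the median log2 ratio was -0.07. TMM ratios for the named regulators were 0.922 for Polrmt, 1.16 for Tfam, 0.835 for Tfb2m, 1.19 for Twnk, 1.03 for Polg and 0.890 for Lrpprc.

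**Figure D5:**
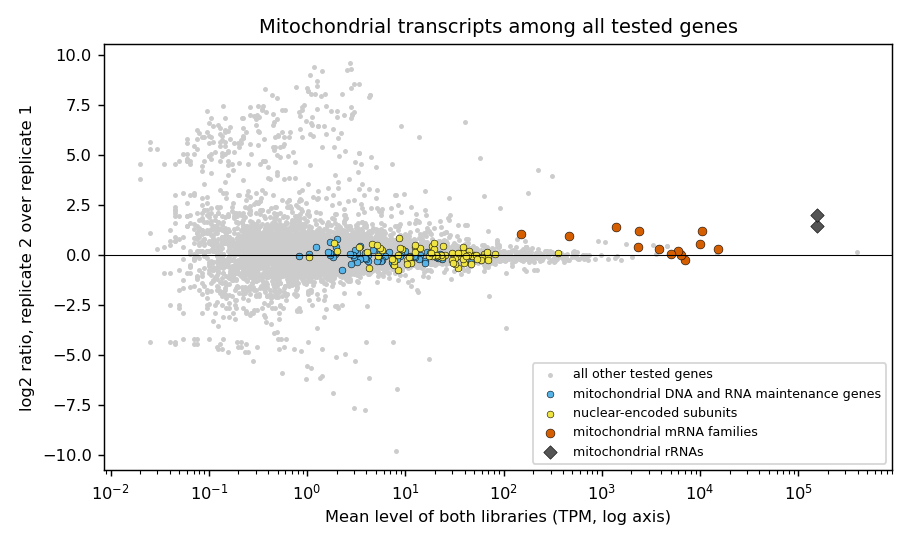
Ratio of replicate 2 over replicate 1 (log2, TMM-scaled, vertical axis) against mean level (TPM, log axis) for all other tested genes in grey, with 0.5 counts added in each library, and for the mitochondrial mRNA families, both rRNAs, the nuclear-encoded subunits and the 54 nuclear maintenance genes in colour. The maintenance genes lie around 0, and mt-Rnr2 lies highest of the mitochondrial points under TMM, at a ratio of 4.03 (below 1 with spike-in scaling).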

How the data were processed

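Total RNA sequencing of 2 G1E replicates was used, 1 gene table and 1 transcript table per library. Per the file headers, the authors deposited expected counts (estimated, not normalised, with shared reads divided), TPM values (maximum-likelihood and posterior mean), FPKM values, an isoform percent and credibility bounds of TPM. Assembly mm10 and GENCODE M4 are named in the deposited file records. Aligner and quantifier: not given in the sources used here. Names, positions and sequences came from GENCODE M21 (GRCm38), matched by identifier without version.

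Counts of each mRNA and its copies were summed before fitting and rounded to whole numbers. The ratio of replicate 2 over replicate 1 was tested per gene entry with at least 10 counts over both libraries, by a two-sided exact binomial test whose expected ratio came from TMM effective library sizes (edgeR 4.0.16, R 4.3.3), adjusted by Benjamini-Hochberg over the whole table and called at 0.05 and 2-fold. Intervals are 95% Clopper-Pearson and cover counting error only; amplified reads are not independent molecules, and 1 group allows no test of a condition. Copies were aligned with BLAST 2.17.0 (at least 100 bases, 80% identity), and 12 further nuclear matches held 7 and 6.08 counts in all. DESeq2 1.42.0 gave alternative size factors; tables and figures were made with NumPy 2.4.6, pandas 2.3.3, SciPy 1.17.1 and matplotlib 3.10.9 under Python 3.11.15.

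The members, gene lists and tests were chosen with earlier results of these data known. All mRNAs, rRNAs and copies are named; tRNAs were to be named from a count of 10, or else the 3 highest; of 54 maintenance genes, 6 set regulators, the 3 highest and 3 lowest by mean TPM, and any called gene are named. Alternatives were other scalings, filters, estimates and length corrections, edgeR's exact test with a common dispersion, and fits without the copies or without either library. 1 maturation gene is not reported here.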

Additional observations from a re-analysis of the deposited data

How the results depend on the processing

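Levels, complex shares and the rRNA ratios moved by less than 1 SD with the posterior mean, FPKM (levels and complex shares) and the transcript table (levels). Of 2 values, each lies within 1 SD of their mean, so leaving out a library tests little there, and the ratios between libraries have no value with a library left out. No paired analysis was possible because the labels give 1 group. Leaving out the copies gave a summed level of 56099 TPM, a count share of 3.07%, complex shares of 9.002% (III) and 35.1% (V), and log2 ratios of -0.086 for mt-Co2 and -2.50 for mt-Nd3. The share was 12.95% without ribosomal RNA entries in the denominator and 16.3 per 100 nuclear protein-coding counts. By counts not scaled to length, complexes I, III, IV and V held 43.3%, 9.96%, 33.4% and 13.4%, and mt-Rnr2 was 1.66 times mt-Rnr1. Chosen after seeing the data, annotated length gave a summed level of 60749 TPM and 27.5% for complex V. The sum of deposited TPM, chosen likewise, gave 33.7% for complex V. It gave the mt-Co1 family 14578 TPM in place of 10473, with 11518 and 17638 in the libraries, which overlaps mt-Atp8.

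Scaling moved the log2 ratios most. With total counts they were -0.011 for the summed mRNAs, -0.26 for mt-Nd1 and mt-Atp8, -0.34 for mt-Nd4, -0.12 for mt-Nd5 and -0.46 for mt-Cytb, with all 13 families from -0.78 to 0.84. Within the mitochondrial mRNA total they were -0.25 for mt-Nd1 and mt-Atp8, -0.33 for mt-Nd4, -0.11 for mt-Nd5 and -0.45 for mt-Cytb. With spike-ins they were -3.98 for the summed mRNAs, -2.69 for the rRNAs, -3.04 for mt-Rnr1, -2.48 for mt-Rnr2, -3.31 for mt-Co1, -3.32 for mt-Co2, -3.13 for mt-Co3, -3.47 for mt-Nd3, -3.54 for mt-Nd6, -3.97 for mt-Atp6, -4.09 for mt-Nd5, -4.23 for mt-Nd1 and mt-Atp8, -4.32 for mt-Nd4, -4.43 for mt-Cytb, -4.53 for mt-Nd4l and -4.76 for mt-Nd2. Centred posterior mean TPM gave 0.021 for mt-Nd4l. Of 15 mitochondrial rows, 1 was called with total counts (higher in replicate 2), 15 with spike-ins (lower) and 1 with the negative binomial test (higher), and of 54 maintenance genes 2 with total counts (lower, against 8.55% of all genes) and 54 with spike-ins (lower, against 97.5%); the cause was not tested. DESeq2 size factors and the count filters that were run changed neither count.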
